A study of Mus musculus with 6 samples.

Results

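Chemokines are small secreted proteins that guide leukocytes along gradients, and they are grouped as CC, CXC, CX3C and XC by the spacing of their first cysteines. Signalling chemokine receptors are G protein-coupled receptors of leukocytes and some vessel wall cells, whereas atypical receptors bind chemokines and take them up without G protein signalling. In an artery exposed to angiotensin II, the pair of Ccl2 and its receptor Ccr2 is known for the recruitment of monocytes from blood. The genes described here are all 60 rows of the deposited expression table, out of 41064, whose symbol is that of a CC, CXC, CX3C or XC chemokine or of a signalling or atypical (Ackr) chemokine receptor. They comprise 38 ligands and 22 receptors. Genes were chosen by name alone, and relatives with other symbols, such as Pf4 and Ppbp, are treated apart.

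RNA was sequenced from mouse aortas in 6 libraries. In 3 of them the label gives wild type with angiotensin II (Ang II), and in 3 it gives JOSD2 KO, a knockout of the deubiquitinase gene Josd2, also with Ang II. Both groups therefore carry the treatment, and each difference is one between labelled genotypes under Ang II. The labels do not give strain, age, dose or duration, how the knockout was made or in which cells, and they tie no library to an animal, although the series text speaks of mice. The p-values, SDs and counts of groups that do not overlap therefore describe only how much these 6 libraries vary. That variation may be technical.

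Levels are given as TMM-scaled FPKM, which are fragments per kilobase of transcript and per sequenced fragments as deposited (FPKM), divided by a library factor of 0.866 to 1.15 from edgeR's TMM method. Total counts were 63612353 to 75886761 per library, and a floor of 12 counts per library, read as 3 read pairs, corresponds to 0.137 to 0.218 CPM, the count scaled by library size. It covers counting error only, because the reads carry no molecular identifiers. Mitochondrial transcripts took 36.2% of the counts in each wild type library and 23.8% to 23.9% in each labelled knockout library. Scaling by library totals in place of TMM lifts the median gene by 0.41 (log2) in labelled knockout aortas. Some genes were nearly equal within a group. The smooth muscle gene Acta2 stood at 3792, 3819 and 3814 in wild type and 3098, 3101 and 3097 in labelled knockout aortas. The kidney gene Aqp2 stood at 10.4, 9.60 and 9.81 against 0.303, 0.139 and 0.190. Lower genes such as Ccl4 spread more widely, at 1.46, 1.16 and 2.79 in wild type. Whether libraries of a group come from separate animals or from a shared pool was not tested. Josd2 itself was still detected, at 9.58, 9.94 and 9.42 in wild type and 6.95, 6.39 and 6.86 in labelled knockout aortas (log2 fold change -0.52 with SE 0.07, edgeR adjusted p = 0.000244), a difference that no longer passed with library totals (-0.11, edgeR adjusted p = 0.231). They are therefore called libraries labelled knockout, and every direction below rests on that label.

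Of the 60 genes, 49 passed the filter on low counts and 11 did not. Among those tested, 22 changed (44.9%), against 24.7% of all 20132 genes tested. Lower in labelled knockout aortas were 16 (32.7%), against a background of 11.5%, and 6 were higher (12.2%), a share close to the background of 13.2%. The median log2 fold change of the 49 was -0.47, beside -0.0031 over all tested genes. With library totals the split became 13 higher and 12 lower, against backgrounds of 46.8% higher and 3.81% lower, or 50.6% in either direction. Of the 16 lower genes 7 were inflammatory CC ligands and 4 signalling receptors, and the higher genes were Ccl8, Cxcl13, Cxcl14 and the atypical receptors Ackr1, Ackr3 and Ackr4. Groups did not overlap for 30 of the 49 tested genes (61.2%), all 22 called ones among them, against 41.1% of all tested genes.

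**Figure D1:**
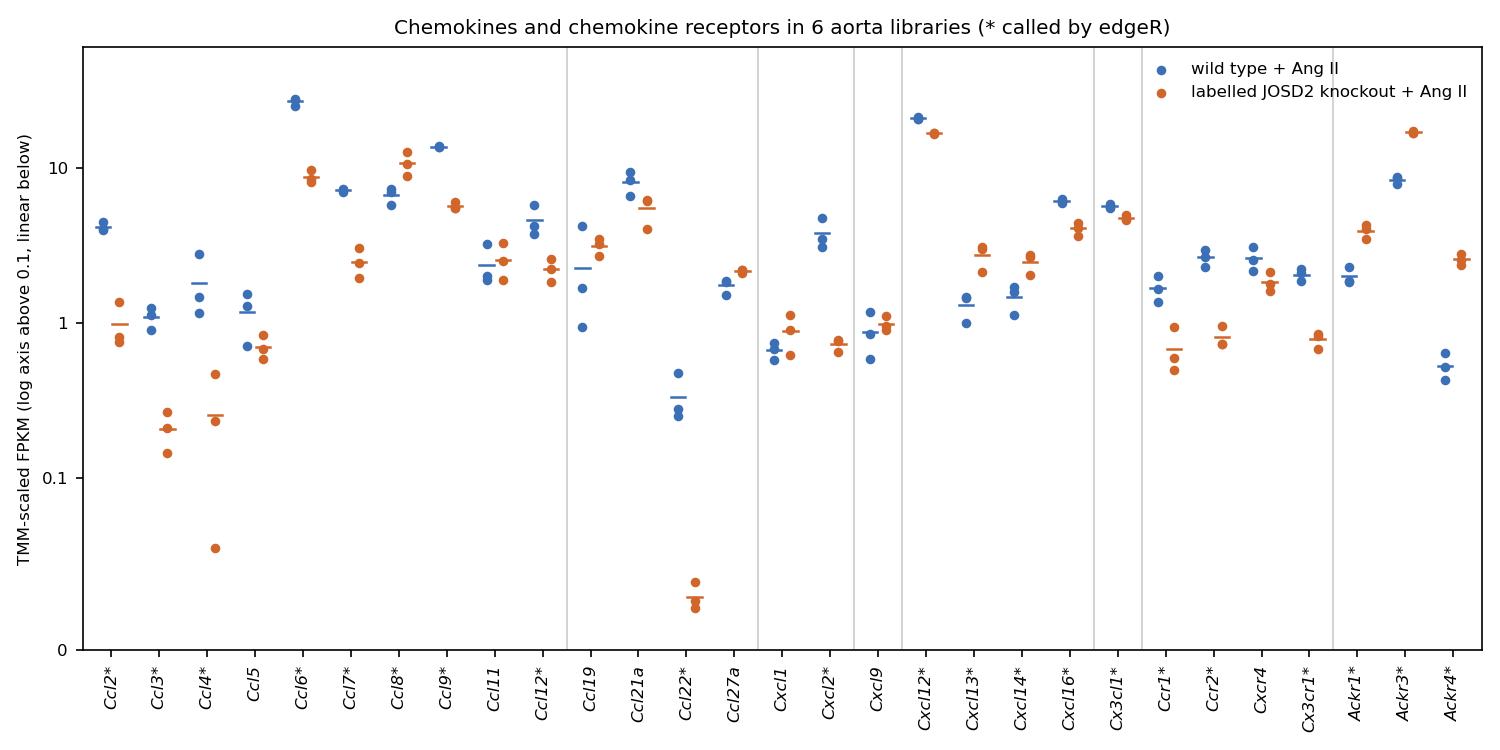
TMM-scaled FPKM (log axis above 0.1, linear below) of members that were called or reached a mean of 1 deposited FPKM in a group; points are single libraries, short lines are means of 3, asterisks mark members called by edgeR, and grey lines part the roles. Ccl6 sits at 24.9 to 27.8 in wild type and 8.12 to 9.65 in labelled knockout aortas, whereas Ackr3 sits at 7.85 to 8.65 and 16.7 to 17.3.

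Inflammatory CC ligands, which draw monocytes and other leukocytes, made up the largest falling group by count. Of 12 such genes, 11 were tested, of which 7 fell, 1 rose and 3 did not pass, with a median of -1.27. Ccl2 (chromosome 11, 82035571 to 82037453), the main monocyte attractant and a ligand of Ccr2, had a level of 4.46, 4.03 and 3.98 in the wild type libraries and 0.753, 0.807 and 1.36 in labelled knockout aortas. All 3 labelled knockouts lay below all wild type libraries, and the mean fell 4.25-fold (log2 fold change -2.08 with SE 0.25, edgeR adjusted p = 0.000126). Ccl7, another Ccr2 ligand, stood at 7.17, 7.29 and 6.97 against 3.05, 1.93 and 2.41 (log2 fold change -1.53 with SE 0.20, edgeR adjusted p = 0.000188). Ccl12, a mouse ligand of the same receptor, stood at 3.75, 5.77 and 4.21 against 2.58, 2.22 and 1.84 (log2 fold change -1.05 with SE 0.27, edgeR adjusted p = 0.0151). The summed level of these 3 Ccr2 ligands was 15.9 ± 1.06 in wild type and 5.65 ± 0.712 in labelled knockout aortas (mean ± SD, n = 3), 2.81 times lower. The Ccl12 call was the weakest of them and was lost without wild type 2 (-0.84, edgeR adjusted p = 0.0645), labelled knockout 2 (-1.04, edgeR adjusted p = 0.0523) or labelled knockout 3 (-0.93, edgeR adjusted p = 0.0632), and with library totals (-0.64, edgeR adjusted p = 0.0722).

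Ccl6 and Ccl9, ligands that macrophages and other myeloid cells of the mouse make, were the most abundant CC ligands in wild type. Ccl6 (chromosome 11, 83587882 to 83593087) had a level of 27.8, 27.5 and 24.9 in wild type and 9.65, 8.40 and 8.12 in labelled knockout aortas, 3.06 times lower (log2 fold change -1.61 with SE 0.08, edgeR adjusted p = 8.17e-08). Ccl9 stood at 13.5, 13.7 and 13.8 against 5.53, 5.50 and 5.99 (log2 fold change -1.27 with SE 0.06, edgeR adjusted p = 7.06e-08). In both genes the gap between groups was several times the spread within them, and both calls held under all 16 alternatives.

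Ccl3 and Ccl4, inflammatory ligands that activated macrophages and lymphocytes secrete, fell further from lower levels. Ccl3 stood at 0.897, 1.12 and 1.25 in wild type and 0.144, 0.211 and 0.265 in labelled knockout aortas, 5.19 times lower (log2 fold change -2.37 with SE 0.51, edgeR adjusted p = 0.00561). For Ccl4 the levels were 1.46, 1.16 and 2.79 against 0.0593, 0.233 and 0.470 (log2 fold change -2.79 with SE 0.66, edgeR adjusted p = 0.00973). Wild type 3 had the highest Ccl4 level of all libraries, and without it the Ccl4 call was lost (-2.33, edgeR adjusted p = 0.0573). Ccl5, a T cell and monocyte attractant, did not pass, at 1.29, 0.703 and 1.53 against 0.681, 0.587 and 0.836 (log2 fold change -0.74 with SE 0.38, edgeR adjusted p = 0.202). The eosinophil attractant Ccl11 did not pass either, at 1.89, 3.22 and 2.01 against 3.26, 2.50 and 1.89 with overlapping groups (log2 fold change 0.10 with SE 0.28, edgeR adjusted p = 0.834).

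Ccl8, the remaining inflammatory CC ligand with a call, moved the other way. This monocyte and T cell attractant, which in mice binds Ccr8, had a level of 7.01, 7.32 and 5.77 in wild type and 10.6, 8.89 and 12.6 in labelled knockout aortas, 1.59 times higher (log2 fold change 0.67 with SE 0.18, edgeR adjusted p = 0.0204). It lies just downstream of Ccl12, and both genes are on the plus strand. Within each library the FPKM ratio of Ccl8 to Ccl12 was 1.87, 1.27 and 1.37 in wild type and 4.11, 4.004 and 6.84 in labelled knockout aortas, and the ratio of Ccl8 to Ccl2 went from 1.57, 1.82 and 1.45 to 14.1, 11.02 and 9.23. Such ratios do not depend on library scaling, they were chosen after the values were seen, and the exact two-sided permutation test gave p = 0.1 for each, the smallest that 3 against 3 allows. The Ccl8 call was lost without wild type 3 (0.58, edgeR adjusted p = 0.0688), labelled knockout 1 (0.68, edgeR adjusted p = 0.0625) or labelled knockout 3 (0.54, edgeR adjusted p = 0.09897).

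**Figure D2:**
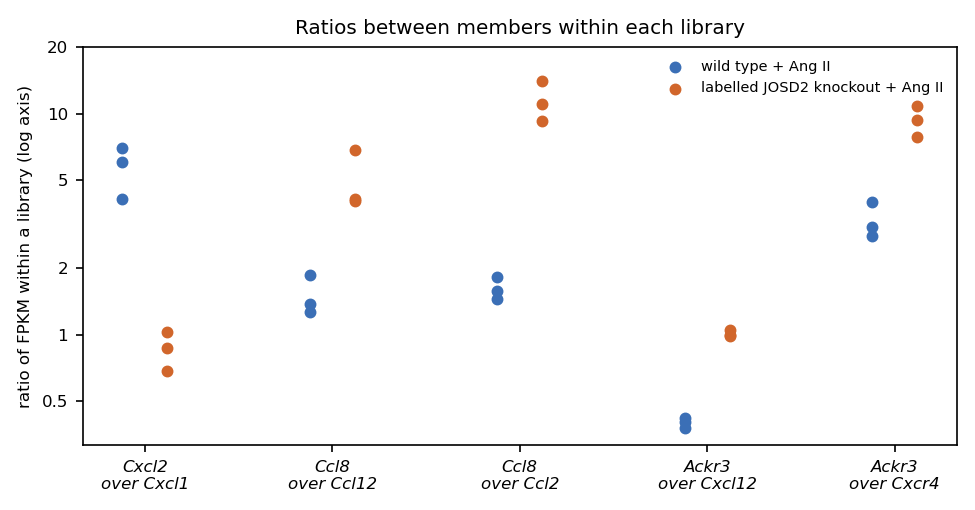
Ratio of deposited FPKM between pairs of members within each library (log axis); points are single libraries of wild type and labelled knockout aortas. The ratios were chosen after the values were seen, and no pair of groups overlaps: Ccl8 over Ccl2 lies at 1.45 to 1.82 in wild type and 9.23 to 14.1 in labelled knockout aortas, and Cxcl2 over Cxcl1 at 4.12 to 6.99 and 0.684 to 1.03.

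The ligands that bind Cxcr2 and draw neutrophils, clustered on chromosome 5, differed from each other in their response. Cxcl2, an early ligand of inflamed macrophages, stood at 3.47, 4.76 and 3.07 in wild type and 0.643, 0.768 and 0.776 in labelled knockout aortas, 5.14 times lower (log2 fold change -2.36 with SE 0.20, edgeR adjusted p = 8.41e-06). Its neighbour Cxcl1, a ligand that fibroblasts and smooth muscle cells also make, stood at 0.575, 0.681 and 0.745 against 0.623, 1.12 and 0.895 (log2 fold change 0.39 with SE 0.30, edgeR adjusted p = 0.389). With library totals Cxcl1 passed upward (0.80, edgeR adjusted p = 0.0422). The ratio of Cxcl2 to Cxcl1 within each library, chosen after the values were seen, was 6.04, 6.99 and 4.12 in wild type and 1.03, 0.684 and 0.867 in labelled knockout aortas (exact two-sided permutation p = 0.1, the smallest possible). Cxcl5 did not pass, at 16, 12 and 0 counts in wild type and 72, 65 and 71 in labelled knockout aortas (log2 fold change 2.32 with SE 0.89, edgeR adjusted p = 0.0867), but it passed upward with library totals (2.73, edgeR adjusted p = 0.0237), by DESeq2, by limma, with counts divided by 4 and without wild type 3. Cxcl3 was too low to test. Receptors Cxcr1 and Cxcr2 of these ligands were untested as well, with at most 11 and 31 counts in a library.

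The proximal promoters of Cxcl1, Cxcl2 and Cxcl3, genes of the same cluster, are shown because they carry the same NF-kappaB type letters, while Cxcl2 was called and Cxcl1 was not. Each run is the 120 bases before the RefSeq transcript start, on GRCm38.p6 and the plus strand, at chr5:90891125-90891244, chr5:90903779-90903898 and chr5:90785981-90786100 in the order of the lines. Capitals mark matches to an NF-kappaB type motif, GGG then any 3 bases then TTCC, on either strand, where matches on the 2 strands can overlap.
Cxcl1: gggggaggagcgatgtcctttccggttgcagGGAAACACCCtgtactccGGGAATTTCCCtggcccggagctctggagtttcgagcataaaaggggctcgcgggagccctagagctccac
Cxcl2: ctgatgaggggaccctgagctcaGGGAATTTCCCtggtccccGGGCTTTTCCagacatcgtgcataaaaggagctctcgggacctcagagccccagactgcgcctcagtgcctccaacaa
Cxcl3: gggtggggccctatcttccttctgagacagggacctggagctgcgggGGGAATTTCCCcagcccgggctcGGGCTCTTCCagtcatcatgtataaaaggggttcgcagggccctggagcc

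All 3 windows hold the letters GGGAATTTCC, which begin 71 bases before the start in Cxcl1, 97 in Cxcl2 and 73 in Cxcl3. Within 250 bases before the start, this motif was found in 4.65% of 32851 RefSeq promoter windows and in 9 of 53 windows of the 46 members that the promoter table holds. Among 11 windows of members called lower it was found in 2, those of Cxcl2 and Ccl9. Ccl2, Ccl4, Ccl7 and Cxcl16 were among the lower members without a window and were not searched for any motif. None of the 6 windows of members called higher held it. The AP-1 letters TGANTCA were found in 6.75% of all windows and, among the windows of members called lower, in Ccl9 alone. The interferon response letters TTTC, any 2 bases and TTTC were found in 2.98% of all windows and, among members called higher, in Cxcl14 alone. The Ccl9 window holds both of the first motifs, in the 120 bases before its start on the minus strand, chr11:83578637-83578756, with AP-1 and NF-kappaB type letters in capitals.
Ccl9: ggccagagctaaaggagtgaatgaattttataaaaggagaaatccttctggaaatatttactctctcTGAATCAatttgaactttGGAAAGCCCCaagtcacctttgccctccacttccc

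A match describes letters and is no evidence of binding, and windows without one show only that these letters are absent there.

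**Figure D3:**
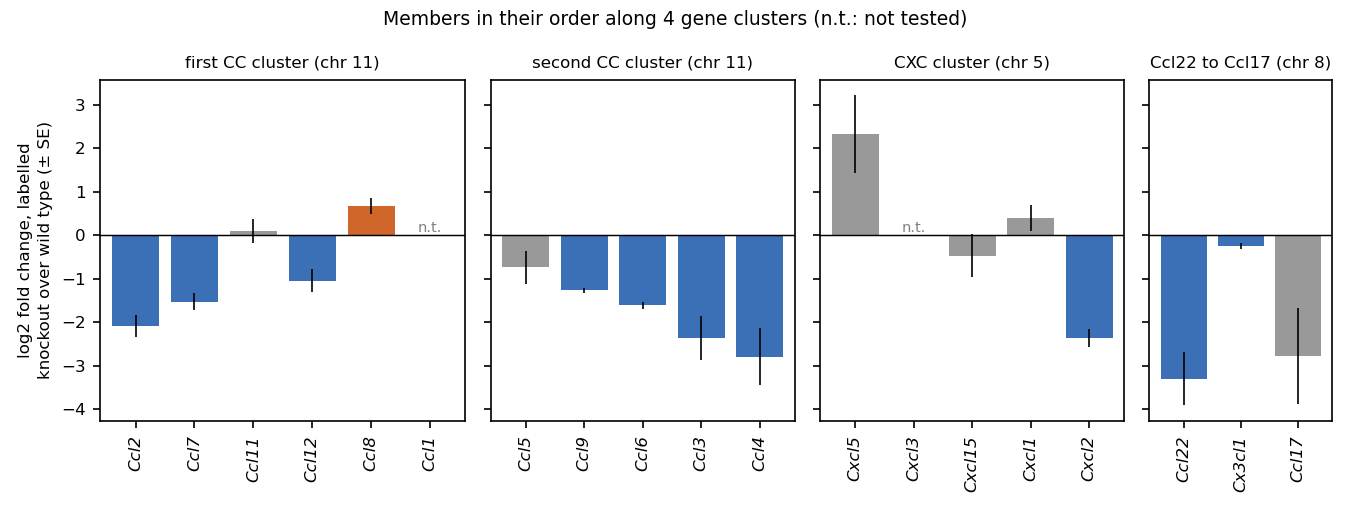
Log2 fold change ± SE, labelled knockout over wild type on the TMM scale, for members in their order along 4 gene clusters; blue bars were called lower, orange higher, grey not called, and n.t. was not tested. Ccl8 at 0.67 stands beside Ccl12 at -1.05, Cxcl2 at -2.36 stands beside Cxcl1 at 0.39, and Cx3cl1 at -0.25 changes sign with library totals (0.16).

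Neighbours in a cluster did not all share a direction. In the first cluster on chromosome 11, of 6 genes over 270.1 kb from Ccl2 to Ccl1, 3 fell, 1 rose and 1 did not pass. In the second, of 5 genes over 138.9 kb from Ccl5 to Ccl4, 4 fell and Ccl5 did not pass. All 6 CC ligand genes of the chromosome 4 cluster, with Ccl19, Ccl21a and Ccl27a, did not pass.

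The remaining CXC ligands were split between directions. Cxcl12, the ligand of Cxcr4 that retains stem cells and leukocytes in tissue and the most abundant CXC ligand here, stood at 20.7, 21.2 and 20.6 in wild type and 16.8, 16.7 and 16.5 in labelled knockout aortas (log2 fold change -0.32 with SE 0.03, edgeR adjusted p = 1.26e-05), but it was higher with library totals (0.09, edgeR adjusted p = 0.0263). Cxcl16, a membrane-bound scavenger and ligand of Cxcr6, stood at 6.32, 5.93 and 6.14 against 4.42, 3.65 and 4.11 (log2 fold change -0.59 with SE 0.09, edgeR adjusted p = 0.000704), without a call with library totals (-0.18, edgeR adjusted p = 0.131). Antisense exons of Zmynd15 overlap 18.3% of its exon bases, and Zmynd15 did not pass (-0.34, edgeR adjusted p = 0.235).

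Cxcl13, the B cell attractant of lymphoid follicles, stood at 0.999, 1.43 and 1.46 in wild type and 3.07, 3.01 and 2.13 in labelled knockout aortas, 2.11 times higher (log2 fold change 1.07 with SE 0.25, edgeR adjusted p = 0.00882). Its receptor Cxcr5 was near the detection limit, with 0 to 57 counts per library. B cell markers had no call beside it among 6 by edgeR, and their summed level ranged from 2.05 to 3.27 across wild type libraries and 1.64 to 2.25 across labelled knockout libraries. Cxcl14, a ligand of fibroblasts and epithelium, stood at 1.59, 1.69 and 1.13 against 2.67, 2.02 and 2.72 (log2 fold change 0.75 with SE 0.21, edgeR adjusted p = 0.0253). The Cxcl14 call was lost without wild type 3 (0.59, edgeR adjusted p = 0.0764), labelled knockout 1 (0.69, edgeR adjusted p = 0.0957) or labelled knockout 3 (0.67, edgeR adjusted p = 0.0977).

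Interferon-inducible ligands of the T cell receptor Cxcr3 showed no call. Cxcl9 stood at 1.18, 0.845 and 0.586 in wild type and 1.11, 0.894 and 0.960 in labelled knockout aortas, overlapping (log2 fold change 0.18 with SE 0.26, edgeR adjusted p = 0.667). Cxcl10 was between 0.152 and 0.609 over all libraries, and Cxcl11 had counts in 1 library alone. Cxcr3 itself had 34, 33 and 34 counts in wild type and 20, 7 and 4 in labelled knockout aortas, without passing (log2 fold change -2.18 with SE 0.79, edgeR adjusted p = 0.0706), although it passed downward by DESeq2, by limma and without labelled knockout 1.

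Homeostatic CC ligands, which organise lymphoid tissue and epithelia, showed 1 call among 10 tested, with a median of 0.08. Ccl22, a dendritic cell and macrophage ligand of Ccr4, had 42, 39 and 84 counts in wild type and 7, 6 and 10 in labelled knockout aortas (log2 fold change -3.30 with SE 0.61, edgeR adjusted p = 0.00235), the latter all under the floor of 12. The other Ccr4 ligand, Ccl17, had 16, 47 and 46 counts against 0, 4 and 18 and did not pass (log2 fold change -2.78 with SE 1.11, edgeR adjusted p = 0.0971), although it passed downward by DESeq2, by limma and without labelled knockout 3. Their shared receptor Ccr4 had at most 33 counts in a library. Dendritic cell markers beside them counted 2 lower, Itgax (-1.71) and Cd209a (-1.21), and 4 that did not pass, among them Xcr1, itself 1 of the 60 genes. The summed level of the 6 markers ranged from 2.85 to 3.41 across wild type libraries and 2.14 to 2.45 across labelled knockout libraries. The part of dendritic cells in the result was not tested.

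Ccl19 and Ccl21a, ligands of Ccr7 that lymphatic and lymph node cells make, did not pass. Ccl21a stood at 6.56, 8.34 and 9.39 in wild type and 4.05, 6.10 and 6.23 in labelled knockout aortas (log2 fold change -0.57 with SE 0.20, edgeR adjusted p = 0.0609). It passed downward with the replicate number as a block (edgeR adjusted p = 0.0217), without wild type 1 (edgeR adjusted p = 0.0402) and by DESeq2 (adjusted p = 0.0108). Its transcript is shared in full with Ccl21b and other copies, so counts are uncertain between them, and with Ccl21a, Ccl21b and Ccl21d summed the value was -0.50 (edgeR adjusted p = 0.0951). For Ccl19 the levels were 1.66, 4.20 and 0.936 against 3.48, 3.24 and 2.71 (log2 fold change 0.46 with SE 0.43, edgeR adjusted p = 0.497). Wild type 2 was far above the other wild type libraries, and without it Ccl19 passed upward (1.26, edgeR adjusted p = 0.0185). Pseudogenes and other copies share 88.9% of the Ccl19 transcript, and with 2 of them summed in, the value was 0.16 (edgeR adjusted p = 0.705). Ccl27a, a skin-homing ligand whose transcript is also shared in full with copies, stood at 1.87, 1.52 and 1.83 against 2.19, 2.19 and 2.10 (log2 fold change 0.30 with SE 0.15, edgeR adjusted p = 0.192) and passed upward with library totals (0.71, edgeR adjusted p = 0.00249).

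Cx3cl1, the membrane-bound fractalkine of endothelium and smooth muscle, stood at 5.55, 5.87 and 5.49 in wild type and 4.93, 4.64 and 4.60 in labelled knockout aortas (log2 fold change -0.25 with SE 0.07, edgeR adjusted p = 0.0236), but had the opposite sign with library totals (0.16, edgeR adjusted p = 0.0964). That small difference was also not called without wild type 2 (-0.22, edgeR adjusted p = 0.0726), labelled knockout 2 (-0.24, edgeR adjusted p = 0.0907) or labelled knockout 3 (-0.23, edgeR adjusted p = 0.0936), nor without a filter (-0.22, edgeR adjusted p = 0.0597). Its receptor Cx3cr1 differed far more, as given next.

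Among the signalling receptors, 4 fell, among them Ccr1, Ccr2 and Cx3cr1, which monocytes and macrophages carry. No signalling receptor rose, 9 tested ones did not pass, and 5 were too low to test. Ccr2 (chromosome 9, 124101950 to 124113557), the receptor of inflammatory monocytes, stood at 2.67, 2.30 and 2.94 in wild type and 0.726, 0.955 and 0.733 in labelled knockout aortas, 3.27 times lower (log2 fold change -1.71 with SE 0.14, edgeR adjusted p = 5.06e-06). Cx3cr1, of patrolling monocytes and resident macrophages, stood at 2.08, 2.21 and 1.85 against 0.675, 0.850 and 0.816, 2.62 times lower (log2 fold change -1.39 with SE 0.15, edgeR adjusted p = 4.35e-05). The gap exceeded the spread of either group in both receptors.

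Ccr1, which binds Ccl3 and Ccl5, stood at 1.65, 1.37 and 2.01 in wild type and 0.499, 0.942 and 0.593 in labelled knockout aortas (log2 fold change -1.30 with SE 0.26, edgeR adjusted p = 0.00364). Cxcr4, the Cxcl12 receptor of many leukocytes and endothelial cells, stood at 2.55, 2.15 and 3.10 against 1.79, 2.12 and 1.60 and did not pass by edgeR (log2 fold change -0.49 with SE 0.19, edgeR adjusted p = 0.0899), although it did by DESeq2 (-0.49, adjusted p = 0.0383). Ccr7, the receptor of Ccl19 and Ccl21a, had 55, 52 and 116 counts against 67, 41 and 52 and did not pass (log2 fold change -0.95 with SE 0.42, edgeR adjusted p = 0.133).

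Most macrophage markers and some monocyte markers moved with these ligands and receptors. Of 10 macrophage markers 9 fell and none rose, with a median of -0.83 and a summed level of 222.7 to 234.1 in wild type and 119.7 to 124.6 in labelled knockout aortas. Among them were the complement genes C1qb (-1.15), C1qa (-0.89) and C1qc (-0.78) and the lysosomal Cd68 (-1.34), while Mrc1, named as the 1 exception after its value was seen, did not pass (-0.20, edgeR adjusted p = 0.0535). Of 6 monocyte markers 3 fell and none rose, with Lyz2, which encodes lysozyme, at -1.36 and Plac8 at -0.97. Those that did not pass, named after their values were seen, were Ly6c2 (-0.38), Chil3 (-1.03) and Spn (-0.77). The summed level of the 6 was 260.6 to 271.8 against 105.6 to 106.002, most of it from Lyz2 (means 257.9 and 100.2). No marker of either list was at 0. Neutrophil markers had no call among 5 tested, with Ly6g at 0 in every library and a summed level of 4.32 to 7.48 against 8.39 to 9.17. Of 6 fibroblast markers 5 fell, among them Col1a1 (-0.87), Dpt (-0.37) and Lum (-0.28), and Pdgfra rose (0.60). Their median was -0.28, smaller than the 0.41 shift between scalings, and their summed level was 921.5 to 946.0 against 632.1 to 634.9. Ccl2 (-2.08), Cxcl2 (-2.36), Ccl3 (-2.37) and Ccr2 (-1.71) stood below every one of the 10 macrophage markers, whose lowest was Cd68, and Ccl9 (-1.27) stood within their range. These differences between genes were not tested. Markers of tissues beside the aorta also differed. Of 6 lung epithelial markers 5 fell and none rose, with a summed level of 11.9 to 14.9 in wild type and 1.38 to 2.01 in labelled knockout aortas, and of 3 kidney markers tested Aqp2, a water channel gene of the collecting duct, fell from 9.93 to 0.211 in the mean (-5.54), while Slc12a1 and Slc34a1 did not pass at means of at most 0.0327. In bulk aorta, fewer cells of a type and less RNA per cell cannot be told apart, and the part of macrophages, fibroblasts or other tissue in the result was not tested.

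**Figure D4:**
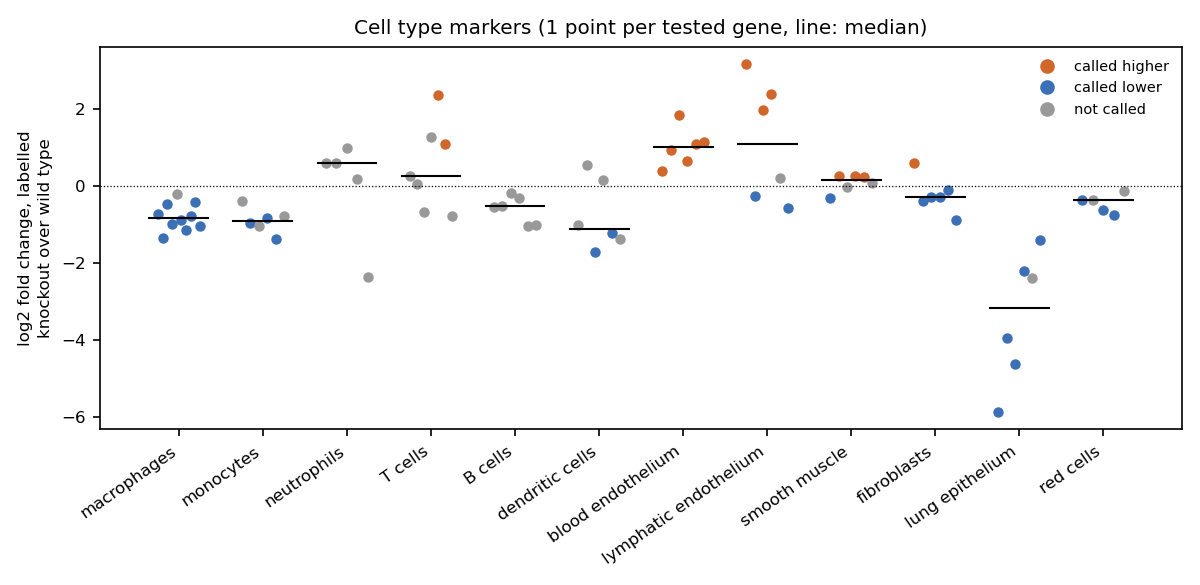
Log2 fold change, labelled knockout over wild type on the TMM scale, of tested marker genes of 12 cell types; each point is 1 gene, coloured by its edgeR call, and black lines are medians. Macrophage markers have a median of -0.83 with 9 of 10 called lower, and blood endothelial markers have a median of 1.02 with 6 of 6 called higher.

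Most atypical receptors were higher in labelled knockout aortas. Of the 4 genes Ackr1, Ackr3 and Ackr4 rose, Ackr2 did not pass, and the median was 0.99. Ackr3 (chromosome 1, 90203980 to 90216751), which removes Cxcl12 from the extracellular space, stood at 7.85, 8.53 and 8.65 in wild type and 16.7, 16.7 and 17.3 in labelled knockout aortas, 2.03 times higher (log2 fold change 1.02 with SE 0.06, edgeR adjusted p = 1.84e-07). The ratio of Ackr3 to its ligand Cxcl12 within each library was 0.380, 0.402 and 0.419 in wild type and 0.990, 1.002 and 1.05 in labelled knockout aortas, and that of Ackr3 to Cxcr4 was 3.08, 3.97 and 2.79 against 9.32, 7.87 and 10.8. Both ratios were chosen after the values were seen, and each had an exact two-sided permutation p of 0.1, the smallest possible.

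Ackr4 (chromosome 9, 104084157 to 104126933), a scavenger of Ccl19, Ccl21 and Ccl25 known from lymphatic endothelium, stood at 0.518, 0.424 and 0.640 in wild type and 2.37, 2.77 and 2.56 in labelled knockout aortas. It rose 4.84-fold, the largest increase among the 22 called members (log2 fold change 2.27 with SE 0.16, edgeR adjusted p = 1.48e-06). Of its ligands Ccl19 and Ccl21a did not pass, and Ccl25 did not pass at 0.0907 to 0.142 against 0.140 to 0.217 (log2 fold change 0.72, edgeR adjusted p = 0.142), although Ccl25 passed upward with library totals (1.13, edgeR adjusted p = 0.0133). The antisense gene Acad11 overlaps 8.9% of the Ackr4 exon bases and did not pass (0.18, edgeR adjusted p = 0.191). Ackr1, the Duffy antigen receptor of venular endothelium and red cells, stood at 1.87, 2.30 and 1.83 against 3.47, 4.01 and 4.25 (log2 fold change 0.96 with SE 0.17, edgeR adjusted p = 0.00191). Exons of Cadm3 on the same strand overlap 25.7% of the Ackr1 exon bases, and Cadm3 did not pass (0.37, edgeR adjusted p = 0.151). Ackr2, the scavenger of inflammatory CC ligands, stood at 0.259, 0.688 and 0.706 against 0.537, 0.614 and 0.695 (log2 fold change 0.16 with SE 0.35, edgeR adjusted p = 0.797). Over Ackr1, Ackr3 and Ackr4 the summed level was 10.9 ± 0.551 in wild type and 23.4 ± 0.806 in labelled knockout aortas (mean ± SD, n = 3).

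Endothelial markers moved with the atypical receptors. All 6 blood endothelial markers rose, with a median of 1.02 and a summed level of 48.9 to 49.2 in wild type and 83.7 to 84.3 in labelled knockout aortas, among them Vwf, which encodes von Willebrand factor (1.10), the receptor gene Kdr (1.86) and the cadherin gene Cdh5 (0.95). Of 6 lymphatic endothelial markers 3 rose, which were the regulator Prox1 (3.17), Mmrn1 (2.40) and the receptor gene Flt4 (1.99), while Pdpn (-0.57) and Lyve1 (-0.26, named after its value was seen and smaller than the 0.41 shift between scalings) fell. Their summed level was 12.2 to 13.9 against 15.2 to 16.6. Of 5 red cell genes 3 fell and none rose, with a median of -0.34, also smaller than that shift. Among the 3, Hbb-bt (-0.75) and Hbb-bs (-0.60) fell by more than 0.41 and Hba-a1 (-0.34) by less. The part of these cells in the result was not tested.

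**Figure D5:**
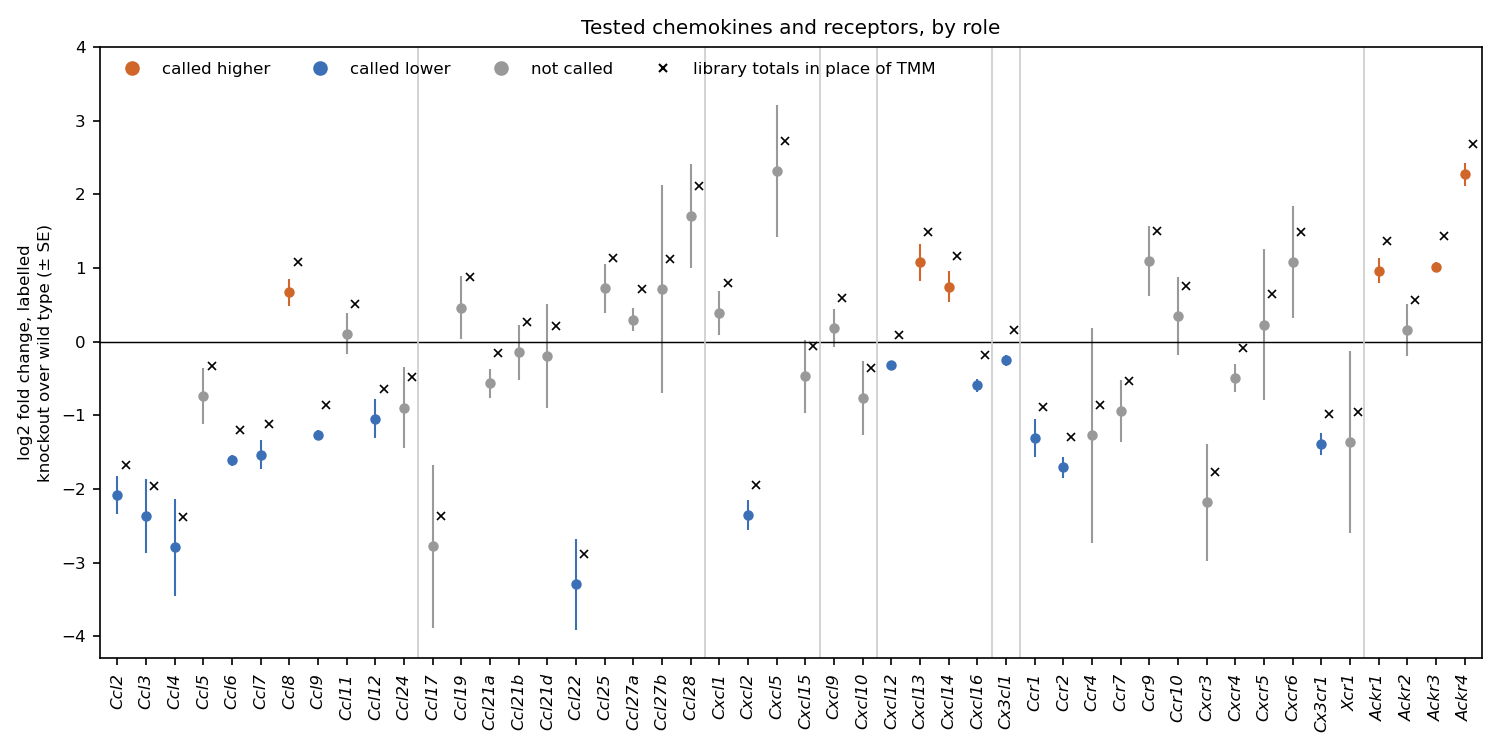
Log2 fold change ± SE, labelled knockout over wild type, of tested members by role, coloured by edgeR call on the TMM scale; crosses give the value with library totals, which lie about 0.41 higher. Inflammatory CC ligands, Ccr1, Ccr2 and Cx3cr1 lie below 0 and Ackr1, Ackr3 and Ackr4 above 0 on both scales, except Ccl8 and Ccl11, while among called members Cxcl12 and Cx3cl1 change sign.

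The other members were low. Besides Cxcl3, Cxcr1, Cxcr2 and Cxcl11, the untested genes were Ccl1 and Ccl20, at 0 counts in every library, Xcl1, Cxcl17, Ccr3, Ccr6 and Ccr8, none with more than 28 counts in a library. A count of 0 allows up to 12 counts in a library by the floor above. Tested without a call and without values above were Ccl21b, Ccl21d, Ccl24, Ccl27b, Ccl28, Cxcl15, Ccr9, Ccr10, Cxcr6 and Xcr1, whose levels lay between 0 and 1.16 over all libraries. Among these the thymus-homing receptor Ccr9 had 19, 41 and 34 counts in wild type and 49, 118 and 120 in labelled knockout aortas (edgeR adjusted p = 0.123), and passed upward with library totals (edgeR adjusted p = 0.0195). Antisense genes overlap 19.0% of its exon bases. Thymocyte markers were higher beside it, as 3 of 4 tested rose and their summed level was 0.184 to 0.443 against 1.43 to 1.64, and their part in the result was not tested. The mucosal ligand Ccl28 had 54, 10 and 7 counts against 130, 144 and 70 (edgeR adjusted p = 0.109). It passed upward with library totals (2.12, edgeR adjusted p = 0.0271), by DESeq2, by limma, with counts divided by 4, with the replicate block and without wild type 1. The lung-associated Cxcl15 had 108, 24 and 88 against 78, 68 and 79 (edgeR adjusted p = 0.546).

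Related genes outside the set changed in both directions. For comparison, 13.2% of all 20132 tested genes were higher and 11.5% lower. Of 7 relatives with other names, the platelet chemokine genes Ppbp (-4.92) and Pf4 (-0.77) fell, Rarres2, which encodes chemerin, rose (0.36), and 4 did not pass, Ccrl2 among them (-0.47, edgeR adjusted p = 0.0519). Among 26 genes that relay chemokine receptor signals, 4 rose, 9 fell and 13 did not pass, with a median of -0.10. Rgs1, a brake on chemokine receptor G proteins in leukocytes, fell 4.75-fold (-2.25), the arrestin gene Arrb1 rose (0.54) and its relative Arrb2 fell (-0.65), and Rap1a, a small GTPase of adhesion, fell (-0.47). Of 10 genes that process or bind chemokines, 3 fell, 1 rose and 6 did not pass, with the macrophage elastase gene Mmp12 at -3.93 and the gelatinase gene Mmp2 at -0.99. With library totals Pf4 (-0.36), Rap1a (-0.06) and Arrb2 (-0.24) no longer passed.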

How the data were processed

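Poly(A) RNA of 6 mouse aorta libraries was sequenced in pairs, per the labels' protocols. The submitters' processing notes name HISAT2 2.0, Bowtie 0.12.2 and mm8 without a role, whereas coordinates of 53 of the 60 genes equal GENCODE M21 on GRCm38. The deposited table holds whole counts per gene, which the authors deposited and which are handled here as estimated counts because low values peak at multiples of 4 (rounding changed 0 values), and FPKM made by the authors. For either, the tool was not given in sources used here.

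Counts of 20132 genes that passed filterByExpr were tested with edgeR 4.0.16 (TMM, quasi-likelihood, Benjamini-Hochberg adjusted p, threshold 0.05) in R 4.3.3, with 3 libraries per group. In a run on simulated data 13 of 161 calls were false (8.07%), a larger share than the threshold. Of planted changes, 56.7% were recovered at 1.5-fold, 73.1% at 2-fold and 92.4% at 4-fold, all in genes that were not low in counts. They numbered 67, 67 and 66, as many up as down. No shift between scalings was simulated, so the run cannot bear on the choice of scaling. Deposited FPKM were divided by the TMM factor for levels. SE is the log2 fold change over the square root of F. Alternatives were DESeq2 1.42.0, limma 3.58.1 on log2(FPKM + 1) or log2(FPKM + 0.1), other scalings and filters, counts divided by 4, a replicate block, each library left out, and copies of Ccl19, Ccl21a and Ccl27a summed, the last chosen after seeing the data. Transcripts were compared with blastn 2.17.0 (97% identity over at least 100 bases). Promoters came from RefSeq, GRCm38.p6.

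Named with every library are members past the threshold or with a mean FPKM of at least 1, and of other lists up to 4 genes with the smallest p. Members and lists were chosen with earlier results of these data known. A member is counted but not reported by name here.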

Additional observations from a re-analysis of the deposited data

How the results depend on the processing

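Of the 22 called genes, 15 kept direction and call under every alternative that tested them, among them Ccl2, Ccl3, Ccl6, Ccl7, Ccl9, Ccl22, Cxcl2, Cxcl13, Ccr1, Ccr2, Cx3cr1, Ackr1, Ackr3 and Ackr4. Ccl3 and Ccl22 were not tested at a mean FPKM of at least 1. The number of genes changed, all tested genes considered, was 4981 and became 10193 with library totals, 10314 with limma on log2(FPKM + 1) and 10196 with limma on log2(FPKM + 0.1), and 3756 to 4458 with a library left out. Genes of the set called higher, 6 in all, numbered 13 under each of those 3 alternatives and 4 to 8 with a library left out, and those called lower, 16 in all, numbered 14 to 17 with a library left out, 12 with library totals and 20 by DESeq2. Under the same 3 alternatives Josd2 did not pass (-0.11, -0.10 and -0.11), Cxcl12 reversed to 0.088, 0.083 and 0.087, and Cx3cl1 reversed to 0.16, 0.13 and 0.15. These 3 use library totals or deposited FPKM. By contrast, DESeq2 and edgeR with median-of-ratios size factors, which do not use TMM factors either, kept all 22 calls and their directions. Uncalled values near 0 also reversed, Ccl11 to -0.031, -0.0017 and -0.11 without wild type 1, wild type 3 or labelled knockout 1 (range -0.11 to 0.39 with a library left out), and Cxcl9 to -0.032 without wild type 3 (range -0.032 to 0.47). DESeq2 called 28 of the set, including all 22. Same-numbered libraries did not deviate together (r = 0.0335, -0.0230 and -0.00962), and not every library correlated best with its own number. With 3 libraries per group these values cannot exclude pairing by number, which the labels do not give. With the replicate block 4560 genes changed, with 7 of the set higher and 17 lower. Genes with fewer than 12 counts in every library are below what this depth can compare.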

Other observations

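The wider chemokine signalling pathway of KEGG, with the 60 genes left out, had genes called in both directions. Of its 129 tested genes 24 were higher, 23 lower and 82 did not pass by edgeR, with a median log2 fold change of 0.01. The shares were 18.6% higher and 17.8% lower, against 13.2% and 11.5% of all tested genes. Its summed level was 1111 to 1113 TMM-scaled FPKM in wild type and 1091 to 1096 in labelled knockout aortas. Plasma cell markers counted 1 higher and 2 that did not pass, with a summed level of 2.38 to 3.89 against 6.97 to 7.17.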
